A study of Oryctolagus cuniculus with 3 samples.

Results

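The genes described here make, store, take up or break down serotonin, histamine and related amines in rabbit (Oryctolagus cuniculus) cumulus-oocyte complexes, which are oocytes with the somatic cells around them. They are 7 genes of 39681 loci in the gene tables, picked by exact gene name: TPH1, DDC, HDC, SLC18A2, SLC6A4, MAOA and MAOB. Female IRA rabbits, 150 in the whole study and 35 days old at the start, were kept for 4 weeks in rooms with controlled air. By the labels, the LAC library came from complexes of rabbits kept at 10 ppm ammonia, and the CG library from rabbits kept under 3 ppm. The remaining library, HAC, by its label from rabbits at 30 ppm, entered only for long non-coding transcripts. The group of the LAC gene table is uncertain, as set out below. Each group had 1 library, and the sources used here do not give how many animals' RNA it held. The genes were chosen with their LAC and CG values known, so those values are a description, with no test and no replicate check.

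Serotonin is made from tryptophan in a pair of steps. Tryptophan hydroxylase, encoded by TPH1 outside neurons and by TPH2 in neurons, adds a hydroxyl group, and the decarboxylase DDC removes the carboxyl group. Histamine is made from histidine in a single step by HDC. The vesicular transporter SLC18A2 loads these amines into storage vesicles, SLC6A4 carries serotonin back into cells, and the mitochondrial monoamine oxidases MAOA and MAOB break serotonin and dopamine down. In mouse, oocytes take up serotonin through the SLC6A4 transporter.

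Which ammonia group the LAC gene table belongs to is uncertain. LAC and HAC carry one and the same gene table, equal in all 39681 rows, whose highest FPKM (fragments per kilobase, scaled to library size) of 39492 is the one given by the statistics filed with HAC, where those filed with LAC give 86394. The totals of valid reads are also exchanged: 72141648 stands in the statistics filed with LAC and in the mapping summary filed with HAC, and 72520954 the other way round. For this reason LAC, HAC and CG below are labels of libraries, also for the non-coding transcripts. At the non-coding locus MSTRG.19482 the shared gene table had 27 estimated counts, beside 1.64 FPKM in LAC and 0 in HAC. At LOC103345125 it had 0 counts, beside 0 FPKM in LAC and 0.29 in HAC. At these loci the gene table thus went with the non-coding values labelled LAC. The ammonia group of both stays uncertain. Estimated counts summed to 68523767 in LAC and 78461882 in CG, and each count is worth about 0.5 reads. Levels are CPM, counts divided by library size, after scaling by trimmed means of M values (TMM), and differences are LAC minus CG in log2(CPM + 1), where the added 1 shrinks the change of weakly counted genes. To pass the size rule took a difference of at least 1 in either direction and at least 10 estimated counts in the higher library. Among 15009 coding genes with enough counts, 11.0% were lower in LAC by this rule and 1.89% higher, with a median difference of -0.14. Intervals are 95% intervals, exact by the binomial or Poisson distribution, and cover counting error only.

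The 7 genes did not differ in one direction. SLC6A4, SLC18A2 and HDC were lower in LAC past the size rule, TPH1 was higher, MAOA and MAOB stayed within it, and DDC had no count. Of the 7 genes, 6 had at least 10 estimated counts in both libraries, so none of the 4 that passed the rule rests on a library at 0. Beside the 11.0% and 1.89% of coding genes past the rule, 3 lower and 1 higher of 7 is a count that the choice of the genes fixed, and nothing is read from it.

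**Figure D1:**
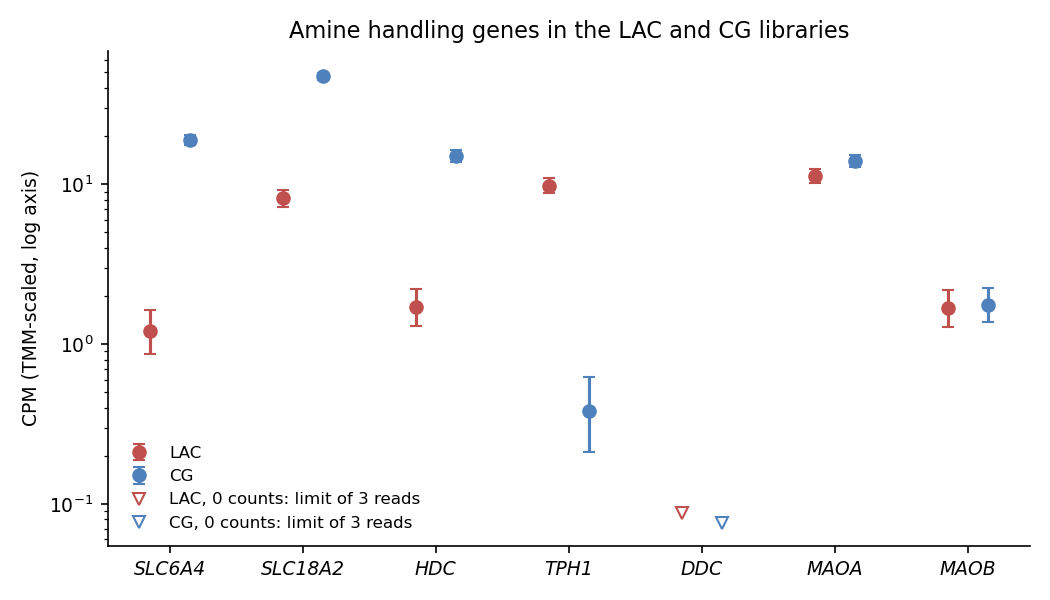
TMM-scaled CPM (log axis) of the 7 genes in the LAC library and the CG library, with exact Poisson 95% intervals; open triangles mark the limit that 0 counts allow. SLC6A4, SLC18A2 and HDC lie lower in LAC, TPH1 lies higher at 9.79 CPM in LAC against 0.379 CPM in CG, and the intervals of MAOB overlap.

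TPH1, the tryptophan hydroxylase of tissues outside the nervous system, had 665 estimated counts in LAC and 30 in CG. These were 9.79 CPM in LAC (8.75 to 10.9) and 0.379 CPM in CG (0.212 to 0.625). TPH1 was thus 25.8-fold higher in LAC (15.4 to 46.6), a difference of 2.97, and 7 of 15009 coding genes had a larger positive difference. The 30 counts in CG stand for about 15 reads, which sets the width of that interval. The locus, MSTRG.21582 (OryCun2.0, sequence NW_003159359.1, 2054401 to 2083690, minus strand), holds the annotated messenger RNA and 1 assembled transcript, and the gene table does not split the counts between them.

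TPH2, the hydroxylase of neurons, is not one of the 7 genes but catalyses the same step. It had 4.20 CPM in LAC and 30.6 CPM in CG, 7.29-fold lower in LAC (6.14 to 8.77). The hydroxylase genes thus differed in opposite directions. The ratio of TPH1 to TPH2 counts, which no scaling between libraries can change, was 2.33 in LAC and 0.0124 in CG, a 188-fold difference. Because both genes' lengths enter that ratio, its level in 1 library does not say which transcript was the more abundant.

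DDC, which turns the product of TPH1 and TPH2 into serotonin, was at 0 counts in both libraries. At this depth 3 reads would have been 0.0884 CPM in LAC and 0.0758 CPM in CG, so a DDC level above these was not detected. Its neighbours were counted: FIGNL1, 10.7 kb away, had 25.3 CPM in LAC and 35.4 CPM in CG.

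HDC, the histidine decarboxylase and sole enzyme of histamine synthesis, had 116 estimated counts in LAC and 1189 in CG. The levels were 1.71 CPM in LAC (1.30 to 2.21) and 15.0 CPM in CG (13.8 to 16.3), 8.79-fold lower in LAC (6.70 to 11.7). The difference of -2.56 was exceeded in size by 71 coding genes on the lower side. HDC lies on sequence NC_013685.1, 22217281 to 22238784, plus strand, and has 1 annotated transcript in the files.

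SLC18A2, the vesicular monoamine transporter, had 553 estimated counts in LAC and 3739 in CG. It stood at 8.14 CPM in LAC (7.20 to 9.15) and 47.2 CPM in CG (45.1 to 49.4), 5.80-fold lower in LAC (5.12 to 6.62), a difference of -2.40. With 3739 counts in CG it is the deepest of the 7 genes there. SLC18A2 (NC_013686.1, 64680234 to 64710982, plus strand) overlaps PDZD8 on the minus strand by 240 bases and the non-coding gene LOC108178426 along all 1187 bases of that gene's span. PDZD8 had 60.6 CPM in LAC and 82.4 CPM in CG. LOC108178426 had 0.324 CPM in LAC and 0.0379 CPM in CG. The sources used here do not say whether counting used strand, and without it reads shared between overlapping genes cannot be told apart.

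SLC6A4, the serotonin transporter of the plasma membrane, differed most among the genes that were lower. It had 82 estimated counts in LAC and 1497 in CG, which were 1.21 CPM in LAC (0.867 to 1.64) and 18.9 CPM in CG (17.6 to 20.3). The ratio was 15.7-fold lower in LAC (11.4 to 21.99), and 12 coding genes had a more negative difference than its -3.17. Relative to SLC18A2, the count of SLC6A4 was 0.148 in LAC and 0.4004 in CG, so the transporters did not differ by the same factor: SLC6A4 was a further 2.70-fold lower. The ratio of HDC to SLC18A2 was 0.210 in LAC and 0.318 in CG. SLC6A4 (NC_013687.1, 18027908 to 18070651, plus strand) has 5 annotated transcripts in the files, counted together.

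MAOA, which prefers serotonin and noradrenaline as substrates, had 766 estimated counts in LAC and 1108 in CG. Its 11.3 CPM in LAC (10.2 to 12.5) and 13.99 CPM in CG (12.9 to 15.2) gave a difference of -0.29, 1.24-fold lower in LAC (1.09 to 1.42), short of the size rule. MAOB, which prefers phenylethylamine, had 114 estimated counts in LAC and 139 in CG. The 1.68 CPM in LAC (1.27 to 2.18) and 1.76 CPM in CG (1.38 to 2.23) gave -0.04, and the sign turned to 0.07 with TMM factors from coding genes alone. The interval of the MAOB ratio, LAC over CG, was 0.657 to 1.37, so no difference was detectable at this depth. Both genes lie tail to tail on sequence NC_013690.1, 26.3 kb apart, and their count ratio was 6.72 in LAC and 7.97 in CG. Both oxidase genes thus stayed within the size rule, while the other counted genes of the 7 differed by 5.80-fold or more. The choice of the genes fixed that contrast, and nothing is read from it about synthesis, transport or breakdown.

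**Figure D2:**
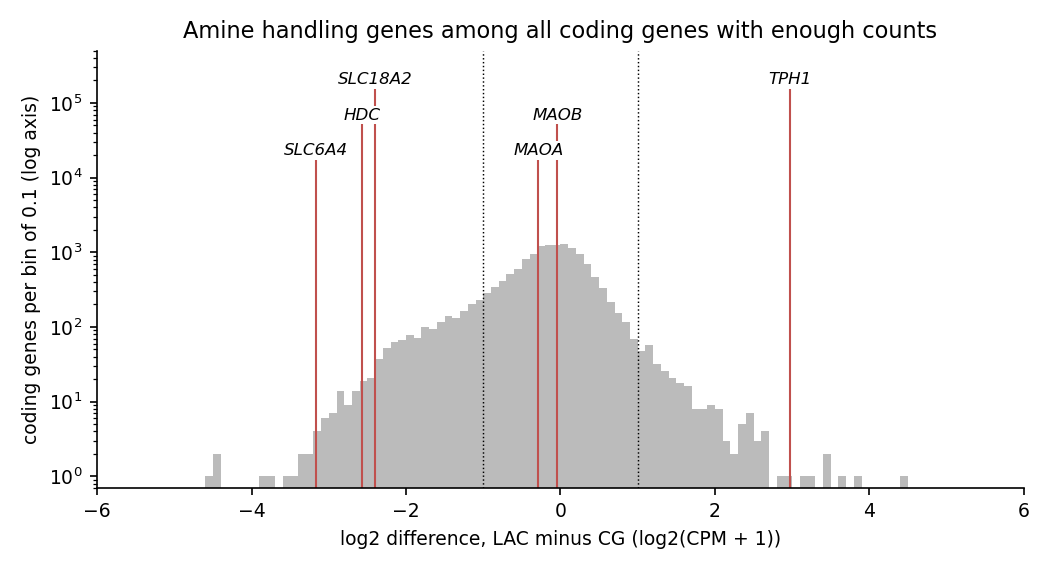
Log2 differences, LAC minus CG, of 15009 coding genes in bins of 0.1 (grey bars, log axis), with the 6 counted amine handling genes as vertical lines and the size rule of 1 as dotted lines. MAOA and MAOB lie in the bulk of the distribution, while SLC6A4 at -3.17 and TPH1 at 2.97 lie in its tails.

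Other genes of amine handling were taken from 6 lists: synthesis, transport, breakdown and receptors for serotonin, histamine, and dopamine, adrenaline or melatonin. Beside the 7 genes these lists named 58, of which 51 were matched to a coding row and 25 had enough counts. Past the size rule, 5 of the 25 (20.0%, beside 11.0% of coding genes) were lower in LAC and 0 were higher (beside 1.89%). Among the lower genes were TPH2, GCH1, TDO2 and DRD2. The median of the 25 was -0.31, beside -0.14 over all coding genes. At 0 in both libraries were 21 of the 51.

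The cofactor genes of the hydroxylases split. GCH1, whose enzyme starts the synthesis of tetrahydrobiopterin, had 10.1 CPM in LAC and 32.4 CPM in CG, 3.20-fold lower (2.84 to 3.62). The other enzymes of that cofactor did not pass the rule. PCBD1 had 9.66 CPM in LAC and 9.22 CPM in CG. PTS had 4.42 CPM in LAC and 5.75 CPM in CG, and SPR had 7.64 CPM in LAC and 7.22 CPM in CG. QDPR, which regenerates the cofactor, had 44.5 CPM in LAC and 53.1 CPM in CG. DBH, PNMT and AANAT, enzymes towards noradrenaline, adrenaline and melatonin, were at 0 in both libraries.

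Among the transporters, SLC6A2, the noradrenaline transporter, had 73.2 CPM in LAC and 57.4 CPM in CG, a difference of 0.34 that did not pass. SLC18A1, the other vesicular transporter, was at 0 in both. Of the serotonin and noradrenaline transporters, SLC6A4 was thus past the rule and SLC6A2 was not.

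In the breakdown list TDO2, which diverts tryptophan into the kynurenine pathway, had 9.17 CPM in LAC and 65.0 CPM in CG, 7.09-fold lower (6.29 to 7.99). Like TPH2, it encodes an enzyme that uses tryptophan. ALDH2, which oxidises the aldehydes that monoamine oxidases make, had 118 CPM in LAC and 147 CPM in CG and did not pass. HNMT, the methyltransferase that inactivates histamine, had 1.08 CPM in LAC and 0.316 CPM in CG, a difference of 0.66. The histamine-degrading AOC1 was at 0 in both.

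Of 13 serotonin receptors, 4 had enough counts and 0 passed the rule, and 7 were at 0 in both libraries. HTR2B, a receptor coupled to calcium release, had 15.1 CPM in LAC and 8.97 CPM in CG, a difference of 0.69. HTR4 had 1.28 CPM in LAC and 2.55 CPM in CG, and HTR7 had 0.618 CPM in LAC and 1.39 CPM in CG. HTR3B, a subunit of the serotonin-gated channel, had 0 counts in LAC and 73 in CG, at least 10.4-fold lower with LAC set at 3 reads. The log2 scale puts that gene at -0.94, short of the rule.

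Among 4 histamine receptors 2 had enough counts. HRH1 had 0.398 CPM in LAC and 1.25 CPM in CG, and HRH2 had 0.471 CPM in LAC and 0.152 CPM in CG. Neither passed the rule. Of the dopamine, adrenergic and melatonin receptors DRD2, a dopamine receptor, was the 1 of 7 past it, with 1.03 CPM in LAC and 4.57 CPM in CG, 4.44-fold lower (3.08 to 6.57). MTNR1A, a melatonin receptor, had 0.633 CPM in LAC and 2.02 CPM in CG. ADRA1B, an adrenergic receptor, had 0 counts in LAC and 76 in CG, at least 10.9-fold lower.

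**Figure D3:**
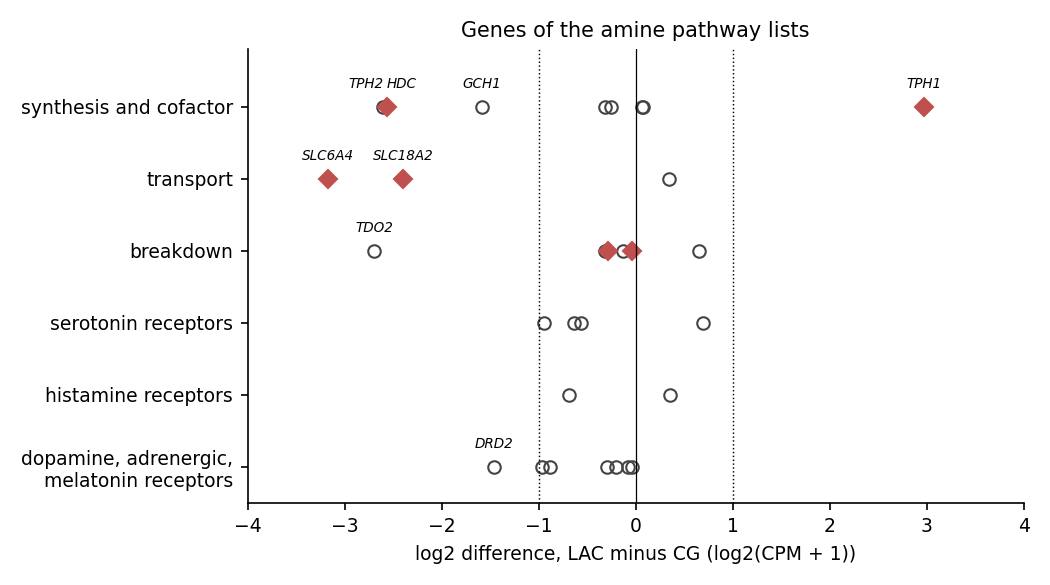
Log2 difference, LAC minus CG, of genes with enough counts in the 6 amine lists, without those not reported here; red diamonds are the genes chosen by name, open circles the others, and names mark genes past the size rule (dotted lines). Synthesis and transport genes spread from -3.17 to 2.97. With the added 1 CPM no receptor passed the rule but DRD2, and more receptors passed it with 0.1 CPM added.

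Markers of the oocyte moved with the lower genes. All 16 oocyte markers had enough counts and were lower in LAC, with differences from -2.77 to -1.28 and a median of -2.09, and summed to 939 CPM in LAC and 4742 CPM in CG, 5.05-fold lower. On that scale SLC18A2 at -2.40 and HDC at -2.56 lie inside the range, with 2 and 1 of the 16 markers below them, and SLC6A4 at -3.17 lies below all 16. The added 1 CPM shrinks the difference of HDC, which has 1.71 CPM in LAC. By the ratio of CPM itself the markers were 3.27-fold to 6.92-fold lower, the last of these KPNA7. As point values, HDC at 8.79-fold and SLC6A4 at 15.7-fold were lower than all 16 by that ratio, and 2 of the 16 exceeded SLC18A2 at 5.80-fold. The counting intervals of HDC and SLC6A4 began at 6.70-fold and 11.4-fold. Both overlapped that of the marker FIGLA, 6.17-fold lower (3.46 to 12.1), so their order relative to FIGLA was not resolved. The interval of HDC also overlapped those of KPNA7 (6.57 to 7.28), NOBOX (3.00 to 7.13), DDX4 (4.77 to 7.12) and DAZL (4.29 to 6.82). The order of HDC relative to these markers was not resolved either. BMP15, a growth factor that oocytes secrete, had 345 CPM in LAC and 1771 CPM in CG. In bulk samples fewer cells of a type and less RNA per cell cannot be told apart, and the part of the oocyte markers in the lower genes was not tested.

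Granulosa and cumulus markers differed little in sum. None of 8 matched markers passed the rule, their differences ran from -0.21 to 0.70 with a median of 0.01, and they summed to 13438 CPM in LAC and 13685 CPM in CG. GJA1, the connexin of cumulus cells, had 4814 CPM in LAC and 4933 CPM in CG. The labelled complex of oocyte and cumulus cells thus had both kinds of markers in both libraries. Theca markers had 0 of 4 past the rule and summed to 116 CPM in LAC and 115 CPM in CG. That sum hides differences both ways. CYP17A1, weakly counted, had 0.972 CPM in LAC and 0.278 CPM in CG, 3.50-fold higher in LAC (1.72 to 7.67). STAR had 48.7 CPM in LAC and 68.0 CPM in CG.

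Mast cell and platelet markers were partly at 0 and partly counted. The mast cell markers summed to 5.98 CPM in LAC and 38.1 CPM in CG, and 1 of 3 with enough counts, KIT, was lower. KIT, which oocytes also express, made up most of that sum, with 5.12 CPM in LAC and 34.9 CPM in CG. Of the other markers, FCER1A and GATA2 were at 0 in both libraries, and CPA3 had 0 counts in LAC and 5 in CG. MS4A2 had 0.530 CPM in LAC and 1.76 CPM in CG, and HPGDS had 0.324 CPM in LAC and 1.41 CPM in CG. All 3 markers with enough counts thus had a lower level in LAC. TPSAB1, TPSB2 and CMA1 matched no coding row, so their levels could not be seen. Platelet markers summed to 62.4 CPM in LAC and 128 CPM in CG, nearly all of it ITGB3, an integrin that other cells also express, which had 57.8 CPM in LAC and 122.5 CPM in CG. ITGA2B, the integrin subunit that marks platelets and their precursors, had 4.14 CPM in LAC and 5.08 CPM in CG, and GP9 had 0.383 CPM in LAC and 0.202 CPM in CG. Neither passed the rule. Platelet SELP and TREML1 were at 0 in both, and PPBP had 4 counts in LAC and 0 in CG.

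Neuroendocrine markers had 0 of 5 past the rule and at most 1.28 CPM in LAC and 2.56 CPM in CG, both of CHGB. In the nerve and Schwann cell list 1 of 6 was lower, SOX10, with 0.633 CPM in LAC and 2.61 CPM in CG. STMN2, which marks neurons, was at 0 in both libraries. The endothelial list had 1 of 6 lower, TEK, and 0 higher, and summed to 8.08 CPM in LAC and 49.0 CPM in CG. TEK, an angiopoietin receptor, made up most of the sum in both, with 4.23 CPM in LAC and 46.7 CPM in CG, while PECAM1 had 1.33 CPM in LAC and 0.960 CPM in CG. CDH5 had 48 counts in LAC and 0 in CG, at least 9.33-fold higher with CG set at 3 reads. KDR had 0.206 CPM in LAC and 0.290 CPM in CG. The median difference of the 6 was 0.19. Without a count of these cells, the part of any of them in the amine genes was not tested.

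Macrophage markers went both ways, with MRC1 and CD163 higher and MSR1 lower among 8, and summed to 26.1 CPM in LAC and 52.8 CPM in CG. MSR1, a scavenger receptor, carried the sum in CG, with 8.20 CPM in LAC and 47.3 CPM in CG. All of the other 7 had a higher level in LAC and summed to 17.9 CPM in LAC and 5.53 CPM in CG, and the median difference of the 8 was 0.44. MRC1, the mannose receptor, had 8.04 CPM in LAC and 0.733 CPM in CG. MRC1 was also the gene nearest to TPH1 in level over both libraries, as described next. Its part in the TPH1 difference was not tested.

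**Figure D4:**
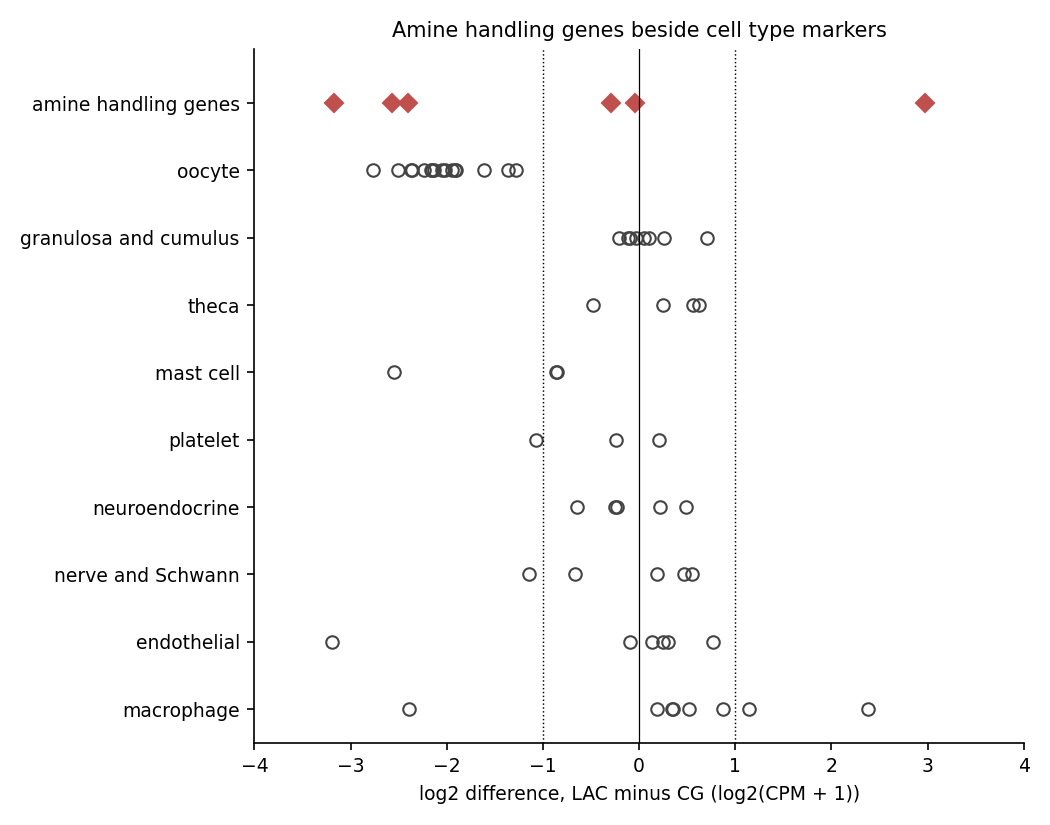
Log2 difference, LAC minus CG, of the 6 counted amine handling genes (red diamonds) and of markers with enough counts for 9 cell types (open circles), without those not reported here; dotted lines mark the size rule. Oocyte markers run from -2.77 to -1.28, around SLC18A2 and HDC on this scale, with SLC6A4 below them all. The added 1 CPM shrinks the value of HDC (8.79-fold lower, with a counting interval from 6.70-fold, beside at most 6.92-fold among the markers). Granulosa markers run from -0.21 to 0.70. MAOB lies at -0.04 and MAOA at -0.29, beside a median of -0.14 over all coding genes.

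The coding genes most like each gene past the rule were found by distance between log2(CPM + 1) levels over 2 libraries, which is too few to set a pattern apart. Nearest to SLC18A2 were MSR1 at a distance of 0.01, CTTNBP2 at 0.05 and GTF2A1L at 0.10. Nearest to HDC were KCNK9, RGS22 and USP43, at 0.09 to 0.19. SLC6A4 had RGS22 at 0.34, SHISA9 at 0.39 and HDC itself at 0.43. TPH1 had no gene closer than 0.42, which was MRC1, followed by S100A6 at 0.43 and ANXA1 at 0.45.

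Genes next to the 7 were examined to see whether a whole region differed. Within 100 kb lay 18 other coding genes, of which 14 had enough counts. Past the rule, 2 of the 14 were lower (beside 11.0% of coding genes) and 0 higher (beside 1.89%). The median of the 14 was -0.29, beside -0.14 over all coding genes. The lower ones were NSRP1, 10.7 kb from SLC6A4, with 4.58 CPM in LAC and 14.6 CPM in CG, and GRB10, 27.5 kb from DDC, with 7.04 CPM in LAC and 32.2 CPM in CG. On the other side of SLC6A4, BLMH had 125 CPM in LAC and 153 CPM in CG. SERGEF, 5.63 kb from TPH1 on the same strand, had 6.02 CPM in LAC and 7.64 CPM in CG. GABPB1, 16.5 kb from HDC, had 126 CPM in LAC and 105 CPM in CG. No coding neighbour within 100 kb of TPH1, HDC or SLC18A2 passed the rule, but so few counted neighbours cannot show whether a region differed.

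Long non-coding transcripts gave the one readout with all 3 libraries. Within 100 kb of the 7 genes lay 10 such loci, near 4 of the genes, and 7 reached 1 FPKM in a library, 6 of them near HDC. One, LOC108178426, overlaps a gene of the set, SLC18A2, and stood at 0.04 FPKM in CG, at 0.31 in LAC and at 0.23 in HAC. Near HDC, MSTRG.16424, 58.3 kb away, stood at 10.2 FPKM in CG, at 12.4 in LAC and at 11.8 in HAC. The FPKM given here are as deposited, without further scaling between libraries. Scaled by the median ratio between libraries, MSTRG.16424 stood at 11.3 in CG, at 10.1 in LAC and at 12.6 in HAC. The order of LAC and CG at that locus thus depends on the scaling. MSTRG.16422, 93.4 kb away and unstranded, was at 2.57 FPKM in CG, at 0.43 in LAC and at 1.14 in HAC. MSTRG.16427, antisense at LOC100351940, was at 1.78 FPKM in CG, at 4 in LAC and at 2.54 in HAC. The single locus near MAOB, MSTRG.19482, was listed at 0 in CG and HAC and at 1.64 FPKM in LAC. SLC6A4, TPH1 and MAOA had no such locus within 100 kb. These transcripts do not give the level of the amine genes in HAC, which was not analysed here.

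**Figure D5:**
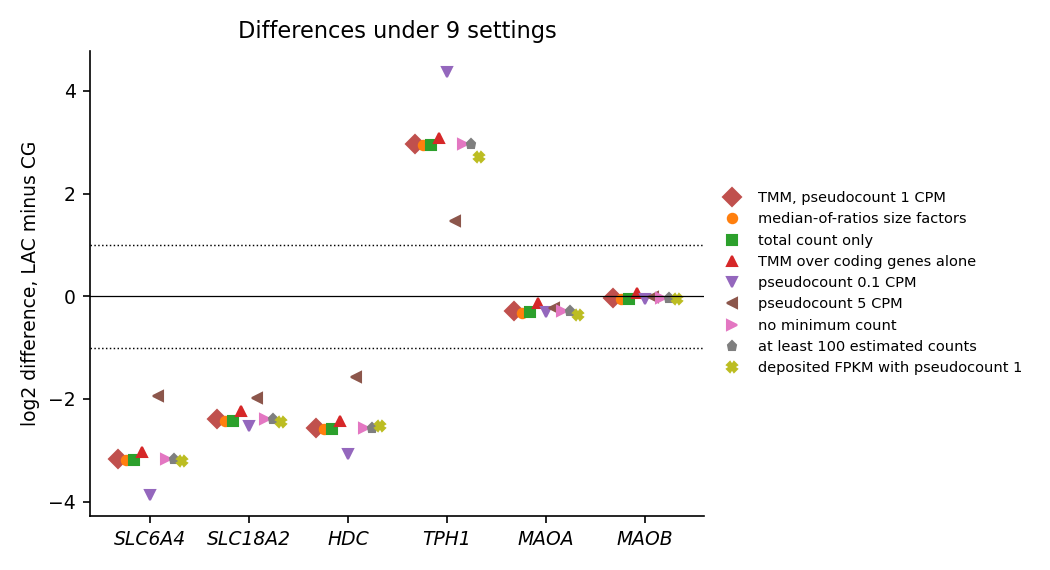
Log2 difference, LAC minus CG, of 6 amine handling genes under 9 settings of scaling, pseudocount, count minimum and unit; dotted lines mark the size rule. SLC6A4, SLC18A2 and HDC stay below -1 and TPH1 above 1 in every setting drawn, while MAOA and MAOB stay between the lines.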

How the data were processed

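Per the labels' protocols, libraries were depleted of ribosomal RNA and built with dUTP in the second strand. Tools named in the submitters' processing notes are fastp and HISAT2, with build OryCun2.0. The sources used here do not give the step that estimated abundance. Per the file headers, the authors deposited an estimated count and an FPKM per gene, and a coverage signal and an FPKM per long non-coding transcript. At 1-transcript loci with a coverage above 2 (8638 in LAC, 8651 in CG), 100% of counts equalled coverage times length over 75, so intervals used halved counts. Not used were 2 of 12 per-sample columns, the copied gene table. Counts were scaled by TMM (30% of ratios and 5% of levels trimmed) with Python 3.11.15, numpy 2.4.6, pandas 2.3.3 and SciPy 1.17.1, after a check on simulated data. Gene FPKM served as an alternative only, its scale between genes being uncertain. Rows holding a RefSeq messenger RNA were taken as coding genes. A LOC name took its symbol by gene number from RefSeq's mOryCun1.1 table (832 of 13817). Named genes are the 7 genes, list genes past the rule or, up to 3, highest in mean, and the 3 nearest genes; marker lists follow the same rule. Other list genes, markers and neighbours named were chosen after their values were seen. The genes and lists were chosen with earlier results of these data known. Some list genes are counted but not reported by name here. With 1 library per group no test was made. Alternatives were other scalings, pseudocounts of 0.1 and 5 CPM, no minimum or 100 counts, and FPKM.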

Additional observations from a re-analysis of the deposited data

How the results depend on the processing

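SLC6A4, SLC18A2 and HDC stayed lower and TPH1 higher past the size rule under all 9 settings, and the counts of 3 lower and 1 higher did not change. Their differences ran from -3.86 to -1.95 for SLC6A4, from -2.52 to -1.99 for SLC18A2, from -3.06 to -1.58 for HDC and from 1.46 to 4.37 for TPH1, the ends set by the pseudocounts of 0.1 and 5 CPM. MAOA ran from -0.36 to -0.13 and MAOB from -0.06 to 0.07, neither past the rule. With a pseudocount of 0.1 CPM 12 genes of the amine lists were lower and 2 higher (HNMT and HRH2), with 2740 coding genes lower and 943 higher. Newly lower there were the receptor genes HTR3B, HTR7, HRH1, ADRA1B, ADRA1D, ADRA2A and MTNR1A, so the receptor calls depend on the pseudocount. At 5 CPM these were 3 lower in the lists, without DRD2, and 909 coding genes lower and 112 higher. With FPKM, 179 coding genes were higher, and MTNR1A passed the rule as lower. TMM over coding genes alone raised every log2 ratio by 0.18 and gave 1340 lower and 396 higher coding genes. Within 10 kb of the 7 genes 0 long non-coding loci reached 1 FPKM. Unhalved counts narrow the intervals. No paired analysis was possible because each group has 1 library, and no library could be left out. Low counts limit SLC6A4 and HDC in LAC and TPH1 in CG, and MAOB in both.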

Other observations

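Assembled loci without a RefSeq messenger RNA lay at 3 genes of the amine lists, and were picked out after their values were seen. MSTRG.17024, at GCH1, had 3.27 CPM in LAC and 13.4 CPM in CG, 4.10-fold lower, beside the 3.20-fold of GCH1 itself. MSTRG.14461, at SLC18A1, had 0 counts in LAC and 99 in CG, at least 14.2-fold lower with LAC set at 3 reads, while the coding row of SLC18A1 was at 0 in both. MSTRG.20471, at HTR2A, had 0 counts in LAC and 35 in CG, at least 5.00-fold lower, and the coding row of HTR2A was at 0 in both.

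At 16.1 kb from TPH1, and likewise chosen after its values were seen, the assembled locus MSTRG.21584 at SAAL1 had 5 estimated counts in LAC and 1126 in CG. MSTRG.21583 on the opposite strand overlaps it and had 16.4 CPM in LAC and 7.79 CPM in CG. The coding row of SAAL1 had 14.9 CPM in LAC and 21.7 CPM in CG. The sources used here do not give how reads were split between these overlapping loci.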
